A study of Rattus norvegicus with 6 samples.

Results

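The genes examined here were 9 genes named for their use in B lymphocytes, namely Ighm, Cd79a, Cd79b, Ms4a1, Pou2af1, Irf8, Cd37, Blnk and Ptprc. Of these, 8 had a row under their symbol among the 15388 genes of each count table, and Ms4a1 was not analysed here. The genes were chosen by their symbol with earlier results of these same samples known, including the comparison of late pregnancy with non-pregnant thyroid. Their values in that comparison are therefore given as a description without a test. Thyroid tissue came from adult Sprague-Dawley females, either non-pregnant rats (NP) or rats in late pregnancy (LP) on day 18, counted from the vaginal plug as day 1. Both groups were untreated as far as the labels say, and polyA-selected RNA of 3 samples per group was sequenced.

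B lymphocytes recognise antigen through the B cell receptor, a membrane immunoglobulin held in a complex with a pair of signalling chains. Ighm encodes the heavy chain of immunoglobulin M, and Cd79a and Cd79b encode the signalling chains that carry the phosphorylated tyrosine motifs. Blnk is the adaptor that links the activated kinase Syk to downstream enzymes, and Pou2af1 is a coactivator that works with octamer-binding transcription factors at immunoglobulin promoters. Ms4a1 encodes CD20, a surface protein of B cells. Cd37 is a tetraspanin of leukocytes, and Ptprc encodes CD45, the tyrosine phosphatase carried by nearly all white blood cells. Irf8 is a transcription factor of B cells, but also of macrophages and dendritic cells and of the response to interferon. A resting thyroid consists mainly of follicular epithelium, and lymphocytes are known there as scattered cells or, in thyroid autoimmunity, as infiltrates.

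Each sample held between 2752144 and 3449857 counted reads, so that 3 reads in a library, taken as the smallest level shown by the depth, lay between 0.87 and 1.09 CPM (reads per 1000000 counted reads). Thyroglobulin (Tg) had between 674258 and 791841 reads per sample. The libraries also held parathyroid hormone (Pth) reads, between 11334 and 12633 per sample, and 17 measured skeletal muscle markers summed to 29.3 to 90.1 CPM in NP and 5166 to 5461 CPM in LP. Of these, Acta1 was counted at 0, 166 and 144 reads in NP against 0, 186 and 185 in LP, and Acta1, Pygm, Mybpc2 and Casq1 were at 0 in replicate 1 of both groups. The part of these tissues in the values below was not tested. Between replicates 2 and 3 of a group the counts agreed within sampling noise (chi-square per degree of freedom 1.02 for NP and 0.995 for LP), while replicate 1 gave 3.70 to 4.11 against them. For every mean ± SD their average was taken as a single sample, which gives n = 2 for each group, whereas the edgeR fits behind each SE and adjusted p-value used 3 samples per group. Nothing in the labels names the animal behind a sample, so p-values measure only the spread between these samples. Because those fits count replicates 2 and 3 as separate samples, the spread they measure is in part sampling noise. Their SE and p-values may therefore be too small. In a bulk gland fewer cells of a type and less RNA per cell cannot be told apart.

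The name B lymphocyte genes was checked first against the defining markers, and the reads did not bear it out. Cd79a was counted at 2, 1 and 1 reads in NP against 1, 0 and 3 in LP. Cd79b was counted at 0, 0 and 1 reads in NP against 0, 1 and 0 in LP. No sample exceeded 3 reads of either chain, so both genes lay at or under the floor in every sample and no fold change is given for them. Summed over the libraries of a group, Cd79a reached 0.461 CPM in NP (95% exact Poisson interval 0.126 to 1.18) and 0.395 CPM in LP (0.108 to 1.01), an interval that covers counting error only. Pax5, the factor that fixes B cell identity, was not analysed here. The genes are therefore called by their symbols below and not by a cell type.

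Most reads of the 8 genes came from 2 of them. Irf8 took 67.1% and Blnk 23.4% of the 3311 reads counted on the 8 genes in the 6 samples, and Cd79a and Cd79b gave 8 and 2 reads. These are shares of reads, not levels per length, since transcript lengths were not used. The fitted log2 changes of Irf8 and Blnk had opposite signs, at -0.93 (SE 0.067) and 0.18 (SE 0.090), and that of Blnk was small.

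The promoter stretches below are shown because they belong to the best measured gene and to the members in whose promoter a motif of lymphoid factors was found. RefSeq promoters (build GRCr8, 250 bases before and 50 after the annotated start) were at hand for 5 of the 9 genes, Cd79a, Irf8, Cd37, Blnk and Ptprc. All are written 5′ to 3′ on the strand of the gene, with positions counted backwards from the start. The Irf8 stretch covers positions -120 to -1 (chr19:65699164-65699283, plus strand), with each CpG in capitals. The Blnk stretch covers -215 to -156 (chr1:249770689-249770748, minus strand), with the octamer in capitals. The Cd37 stretch covers -105 to -46 (chr1:104860830-104860889, minus strand), with the PU.1 motif in capitals.
Irf8: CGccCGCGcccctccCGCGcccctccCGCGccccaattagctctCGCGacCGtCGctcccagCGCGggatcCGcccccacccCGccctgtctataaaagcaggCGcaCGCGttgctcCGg
Blnk: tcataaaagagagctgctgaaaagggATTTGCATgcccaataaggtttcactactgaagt
Cd37: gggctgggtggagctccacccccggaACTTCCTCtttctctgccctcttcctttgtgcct

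The motifs searched on both strands were the octamer ATGCAAAT, the PU.1 motif GAGGAAGT and the composite site of IRF and ETS factors GGAANNGAA, and no match overlapped another in these stretches. The octamer was found in 1 of the 5 promoters, that of Blnk, at -189 to -182, and in 1.78% of all 33469 promoters of the same length. The PU.1 motif was found in the Cd37 promoter alone of the 5, at -79 to -72, and in 2.42% of all promoters. The composite site was found in 0 of the 5 and in 9.32% of all promoters. The Irf8 promoter held 40 CpG in 300 bases, against a median of 7 over all promoters, and 96.8% of promoters held fewer. The other 4 promoters held between 3 and 8. A match of letters is a description and shows no binding.

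Irf8 (ENSRNOT00000024069) was the gene with the most reads. It was counted at 482, 460 and 461 reads in NP against 257, 293 and 267 in LP, or 172, 151 and 151 CPM against 82.1, 86.9 and 79.3 CPM after TMM normalization. Every LP sample lay far below every NP sample, and the gap between the groups was wider than either group's range. The group values were 162 ± 15 CPM (SD, n = 2) in NP and 82.6 ± 0.72 CPM in LP, and the log2 change fitted by edgeR was -0.93 with a standard error (SE) of 0.067, a level 1.91-fold lower in LP. The log2 ratio was -1.07 in replicate 1 alone and -0.86 in replicates 2 and 3. With libraries scaled by their totals alone the log2 change was -1.004, on the other side of the 2-fold line from the value with TMM.

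**Figure D1:**
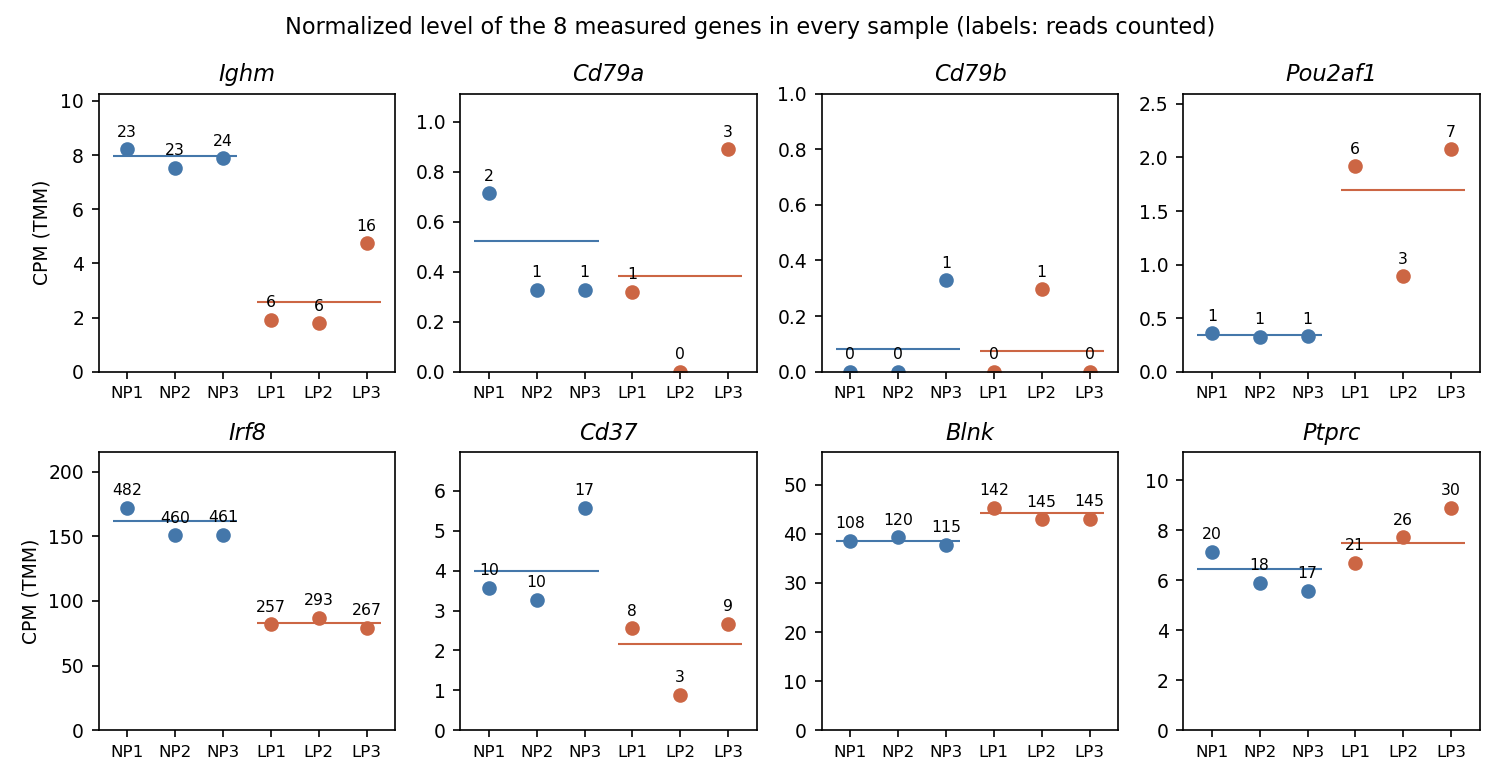
Normalized level (CPM with TMM, vertical axis from 0) of the 8 measured genes in the 3 NP and 3 LP samples; each point is a sample, the number above it its reads, and the line the group mean with replicates 2 and 3 averaged first. Irf8 stands at 151 to 172 CPM in NP and 79.3 to 86.9 CPM in LP, Blnk is slightly higher in LP, and Cd79a and Cd79b do not exceed 3 reads.

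Blnk (ENSRNOT00000019014), the adaptor of B cell receptor signalling, was counted at 108, 120 and 115 reads in NP against 142, 145 and 145 in LP. These were 38.6, 39.3 and 37.8 CPM in NP and 45.3, 43.0 and 43.0 CPM in LP, so the groups did not overlap, but the distance between them was small. The group values were 38.6 ± 0.034 CPM and 44.2 ± 1.6 CPM (SD, n = 2), for a log2 change of 0.18 (SE 0.090). The NP SD is small only because the average of replicates 2 and 3 fell close to replicate 1, and it understates the range of 37.8 to 39.3 CPM. Replicate 1 gave 0.23 and replicates 2 and 3 gave 0.16 on the log2 scale. With library totals alone the value was 0.11, so the size of this small difference depended on the scaling.

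Ighm (ENSRNOT00000081908) was counted at 23, 23 and 24 reads in NP against 6, 6 and 16 in LP. The NP samples were close together at 7.54 to 8.22 CPM, whereas LP replicate 3 at 4.75 CPM stood well above LP replicates 1 and 2 at 1.92 and 1.78 CPM. The group values were 7.96 ± 0.36 CPM in NP and 2.59 ± 0.95 CPM in LP (SD, n = 2), with a log2 change of -1.46 (SE 0.33), which was -2.07 without LP replicate 3. Summed over the libraries, the ratio of LP to NP was 0.343 (95% exact binomial interval 0.213 to 0.539, counting error only). Immunoglobulin genes form a multigene family whose reads can be shared, so the value of this gene is uncertain. Among other immunoglobulin genes, Igkc, the kappa light chain constant gene, was counted at 4, 8 and 10 reads in NP against 10, 7 and 7 in LP, and the groups overlapped. Igh-1a, chosen after its values were seen, was counted at 1, 0 and 0 reads in NP against 3, 3 and 2 in LP.

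Pou2af1 (ENSRNOT00000066848), the octamer coactivator, was at 1 read in each NP sample, against 6, 3 and 7 in LP. All NP values lay under the floor of 3 reads, and LP replicate 2 lay on it. Summed over the libraries there were 3 reads in NP and 16 in LP, for a ratio of 4.57 with a 95% exact binomial interval of 1.31 to 24.5 that covers counting error only. Its direction was opposite to that of Ighm.

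Cd37 (ENSRNOT00000066834), the leukocyte tetraspanin, was counted at 10, 10 and 17 reads in NP against 8, 3 and 9 in LP. The highest LP sample, at 2.67 CPM, was not far below the lowest NP sample, at 3.28 CPM, and NP replicate 3 and LP replicate 2 stood apart in their groups. The log2 change was -1.02 (SE 0.41), and -0.66 without LP replicate 2. Replicate 1 alone gave -0.48 and replicates 2 and 3 gave -1.31.

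Ptprc (ENSRNOT00000064785), the gene of CD45, was counted at 20, 18 and 17 reads in NP against 21, 26 and 30 in LP. NP replicate 1 at 7.15 CPM was higher than LP replicate 1 at 6.71 CPM, so the groups overlapped. The group values were 6.44 ± 0.99 CPM and 7.51 ± 1.1 CPM (SD, n = 2), with a log2 change of 0.33 (SE 0.24). The direction differed between the replicates, with -0.092 in replicate 1 and 0.53 in replicates 2 and 3. Of the tested members, Irf8, Ighm and Cd37 were lower in every LP sample and Blnk was higher. The same held for 19.0% (lower) and 21.1% (higher) of all genes tested, so nothing is read from it.

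**Figure D2:**
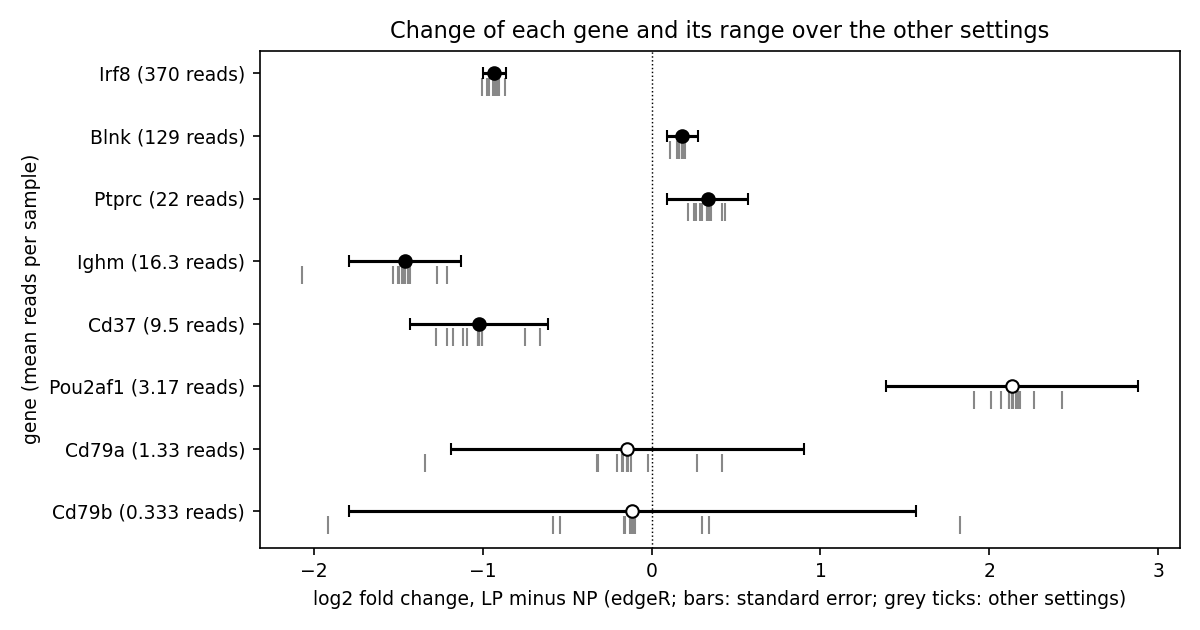
Log2 change of LP against NP for each gene (horizontal axis), with the standard error as a bar, ordered by mean reads per sample; filled points passed the filter on low counts, open points come from the fit without it, and grey ticks are the other settings tried. Irf8 keeps between -1.004 and -0.87, Blnk between 0.11 and 0.20, and the values of Cd79a and Cd79b lie on both sides of 0.

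Across all genes, the groups were tested with edgeR (quasi-likelihood test, adjusted by the Benjamini-Hochberg method), and 11738 genes passed its filter on low counts, 5 of the 8 genes among them. With an adjusted p-value below 0.05, 15.3% of all genes tested were higher and 11.7% lower in LP, and 2 of the 5 genes, Irf8 and Ighm, were among the lower ones. With a fold change above 2 required as well, 4.90% of genes were higher and 0.537% lower, and Ighm was among the latter. Every LP sample lay above every NP sample for 21.1% of genes tested, Blnk among them, and below for 19.0%, including Irf8, Ighm and Cd37. These counts follow from a comparison that was known when the genes were chosen, and nothing is read from them. The share of the called genes that was higher in LP was 56.6% with TMM and 40.4% with library totals alone.

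The wider set of B lymphocyte genes was then described, to see whether genes not named above changed in either direction. It held 64 genes of coreceptors, homing receptors, signalling, transcription factors and precursor stages, listed for their roles and not for their values here. The list was drawn up with earlier results of these samples known, so its calls and p-values are a description. A row was found for 51 of them, 24 passed the filter, and 8 had no more than 3 reads in any sample. Of the 24 tested, 5 rose and 2 fell in LP (adjusted p below 0.05, edgeR), against the background of 15.3% and 11.7% of all genes, and 17 did not pass the test. The median log2 change was -0.0049, beside -0.0091 over all genes tested. With the replicate number as a block, 5 rose and 4 fell, Cd81 and Plcg2 being added at adjusted p-values of 0.0061 and 0.0462. With the near-identical replicates 2 and 3 summed, 2 fell and neither of these was called. The precursor genes, such as Rag1 and Vpreb1, were not analysed here.

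Among the coreceptors, Cd24, a surface glycoprotein of B cells that epithelia carry as well, was counted at 4132, 4345 and 4258 reads in NP against 3652, 3777 and 3666 in LP. It fell from 1444 ± 46 CPM to 1135 ± 44 CPM (SD, n = 2), a log2 change of -0.35 (edgeR SE 0.039 and adjusted p = 2.14e-06). Cd81, a tetraspanin that many cell types express, had a log2 change of -0.11 (adjusted p = 0.0931 from edgeR). Cr2, the complement receptor of B cells and follicular dendritic cells, was counted at 41, 47 and 48 reads in NP against 57, 51 and 56 in LP, and its log2 change of 0.12 was within the error (edgeR SE 0.16 and adjusted p = 0.652). Cd22, an inhibitory receptor found on B cells, was counted at 9, 4 and 5 reads in NP against 4, 5 and 4 in LP. Cd22 and Cd72, a further inhibitory receptor of B cells, did not exceed 9 reads in any sample.

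Among the signalling genes, 12 were tested, and 2 rose and 1 fell. Syk, the kinase that acts on the adaptor encoded by Blnk, was counted at 109, 118 and 110 reads in NP against 70, 92 and 94 in LP, for a log2 change of -0.55 (edgeR SE 0.11 and adjusted p = 0.00147). Pik3ap1, an adaptor that brings phosphoinositide 3-kinase to the receptor complex, rose from 14, 20 and 24 reads to 43, 59 and 48, a log2 change of 1.22 (edgeR SE 0.21 and adjusted p = 0.000332). Pik3cd, the catalytic subunit of that kinase in leukocytes, rose by 0.83 on the log2 scale (edgeR SE 0.18 and adjusted p = 0.00235). The kinase Btk was counted at 2, 6 and 1 reads in NP against 2, 1 and 1 in LP, too few to test. Syk and Blnk, neighbours in the pathway, thus had opposite signs, but the change of Blnk was small (0.18, SE 0.090) and is given without a test.

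Among the transcription factors, 7 were tested and 2 rose. Mef2c, a factor of B cells that is also a main factor of skeletal muscle, was counted at 67, 69 and 69 reads in NP against 359, 344 and 359 in LP, for a log2 change of 2.22 (edgeR SE 0.085 and adjusted p = 1.2e-12). The skeletal muscle markers rose with it, 12 of the 14 tested, with a median log2 change of 7.65, and their part in the value of Mef2c was not tested. Bcl6, a factor of germinal centre B cells that other tissues also express, rose by 0.82 on the log2 scale (edgeR SE 0.16 and adjusted p = 0.000829). Ebf1, the early B cell factor, which stromal cells also express, was counted at 43, 50 and 42 reads in NP against 46, 56 and 59 in LP (log2 change 0.10, adjusted p = 0.701 from edgeR).

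Of the homing and survival receptors 2 were tested. The chemokine receptor Cxcr4 was counted at 10, 16 and 11 reads in NP against 19, 29 and 25 in LP, a log2 change of 0.82 (edgeR SE 0.28 and adjusted p = 0.0349). This call rested on single libraries, since edgeR's adjusted p-value was 0.0993 without NP replicate 1, 0.123 without NP replicate 3, 0.138 without LP replicate 2 and 0.0890 without LP replicate 3. It was also lost with replicates 2 and 3 summed (0.0840) and with DESeq2 in place of edgeR (0.211). Cxcr5, which guides B cells into follicles, was counted at 1, 2 and 3 reads in NP against 4, 1 and 1 in LP.

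**Figure D3:**
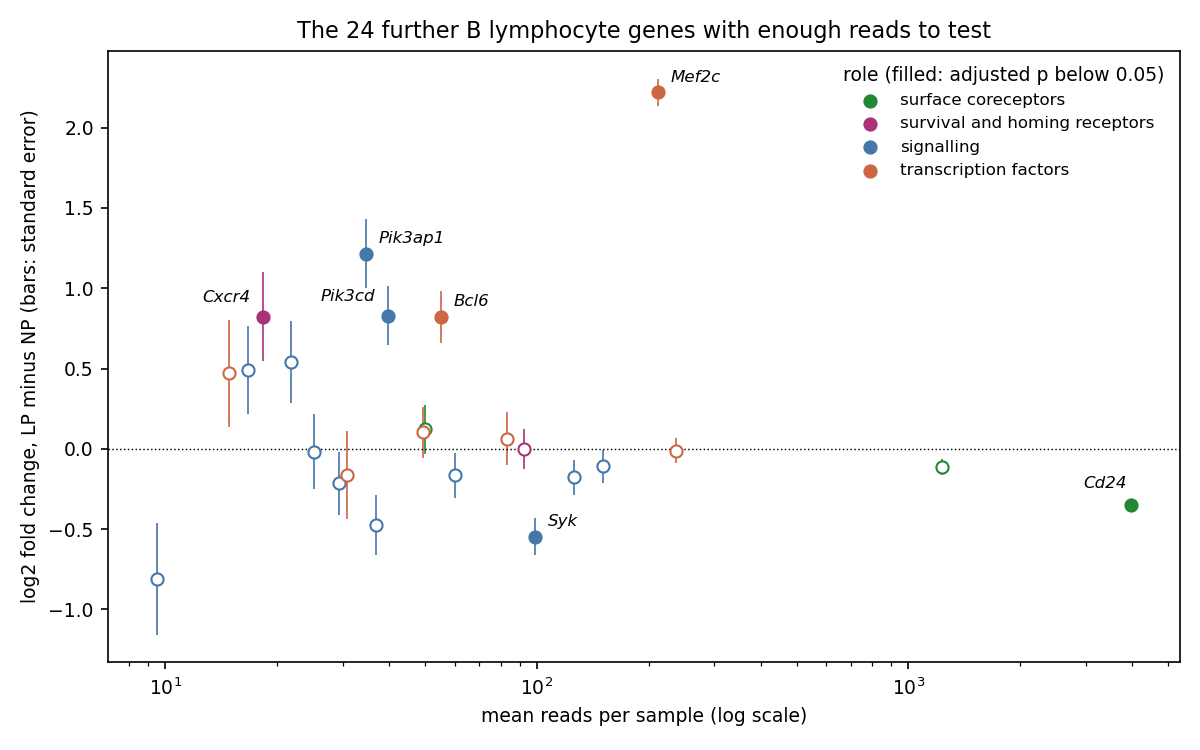
Log2 change of LP against NP (vertical axis, bars give the standard error) against mean reads per sample (log axis) for the 24 tested genes of the wider B lymphocyte list, coloured by role; filled points had an adjusted p below 0.05 in edgeR. The 5 filled points above 0 are Mef2c, Pik3ap1, Pik3cd, Bcl6 and Cxcr4, and the 2 below are Syk and Cd24.

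Plasma cells are the antibody-secreting descendants of B cells. Of 10 plasma cell genes, 7 had a row and 3 were tested. Igj, the joining chain of secreted immunoglobulin, was counted at 5, 3 and 1 reads in NP against 3, 3 and 1 in LP, and Mzb1 did not exceed 3 reads. Xbp1, a factor of plasma cells and of secretory cells in general, fell by 0.33 on the log2 scale (edgeR SE 0.062 and adjusted p = 0.000593).

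Because Irf8, Cd37 and Ptprc belong to other leukocytes too, the levels of those cells' markers are given beside them. The 15 measured macrophage and monocyte markers summed to 202 to 223 CPM in NP and 217 to 239 CPM in LP, with overlapping ranges. Of the 14 tested, 0 had an adjusted p below 0.05 in edgeR, 3 had an unadjusted p below 0.05, and DESeq2 called 0. Their log2 changes lay between -0.59 and 0.33 with a median of 0.059. That of Irf8 was -0.93, and the part of macrophages in it was not tested. C1qa, a complement chain of macrophages, had the highest log2 change of the 14 markers at 0.33 (adjusted p = 0.0589 from edgeR). It passed the threshold with the replicate block (adjusted p = 0.00748 from edgeR), with replicates 2 and 3 summed (0.0344), with TMM computed without muscle and changed genes (0.0470), and without NP replicate 2 (0.0475) or LP replicate 2 (0.00845).

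Several markers of dendritic cells had few reads. Flt3, the cytokine receptor of these cells, was counted at 7, 10 and 6 reads in NP against 4, 5 and 5 in LP, and Clec9a and Xcr1 had at most 12 and 1 reads. Itgax was counted at 8, 5 and 7 reads in NP against 10, 7 and 14 in LP. Zbtb46, which was tested, was counted at 32, 32 and 27 reads against 35, 31 and 27 and was not called (log2 change -0.12, adjusted p = 0.737 from edgeR). Irf7, a factor of plasmacytoid dendritic cells that interferon induces in most cells, was counted at 66, 44 and 65 reads in NP against 187, 198 and 201 in LP, a log2 change of 1.59 (edgeR SE 0.13 and adjusted p = 2.76e-08). Bst2, which interferon also induces, rose by 0.28 on the log2 scale (edgeR SE 0.067 and adjusted p = 0.00393), a call that DESeq2 did not make (adjusted p = 0.0505). Irf7 and Irf8, factors of the same family, thus had opposite signs.

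T cell markers had few reads, and 8 of the 18 measured did not exceed 3 reads in any sample. They summed to 33.6 to 35.1 CPM in NP and 29.1 to 33.5 CPM in LP, of which Cd4, carried by rat macrophages as well, had 35 to 43 reads per sample. Cd3e, with the lowest fitted log2 change of the list, was counted at 5, 4 and 2 reads in NP against 2, 0 and 0 in LP. Lck, which was tested, had 15, 19 and 12 reads in NP against 19, 11 and 8 in LP. Lat went the other way from Cd3e, with 6, 9 and 5 reads in NP against 8, 11 and 16 in LP. Of the 2 genes tested, 0 were called by edgeR or by DESeq2, and 0 had an unadjusted p below 0.05. The NK cell genes summed to 1.92 to 4.93 CPM over all samples, and neutrophil genes to 1.07 to 5.34 CPM, with none of either list passing the filter. The 8 mast cell genes summed to 38.7 to 42.4 CPM in NP and 42.1 to 46.6 CPM in LP, and of 5 tested 0 were called by edgeR or DESeq2, with 0 at an unadjusted p below 0.05.

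Genes shared by all leukocytes gave 1 call among 13 tested. Cd48, a surface protein of lymphocytes and other leukocytes, fell by 0.29 on the log2 scale (edgeR SE 0.074 and adjusted p = 0.00685), but not with DESeq2 (adjusted p = 0.118). Under the replicate block Il2rg fell as well (adjusted p = 0.0327 from edgeR), for 2 calls, but it was not called with replicates 2 and 3 summed. The log2 changes of the 13 tested genes lay between -0.71 (Il2rg) and 0.14 (Cd44), with a median of -0.038. Those of Laptm5, Coro1a and Lcp1, at -0.038, 0.0046 and 0.012, were the nearest to 0. Over the plasma cell, pan-leukocyte, macrophage, dendritic, T, NK, neutrophil and mast cell lists together, 2 of 41 tested genes rose, Irf7 and Bst2, and 2 fell, Xbp1 and Cd48.

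**Figure D4:**
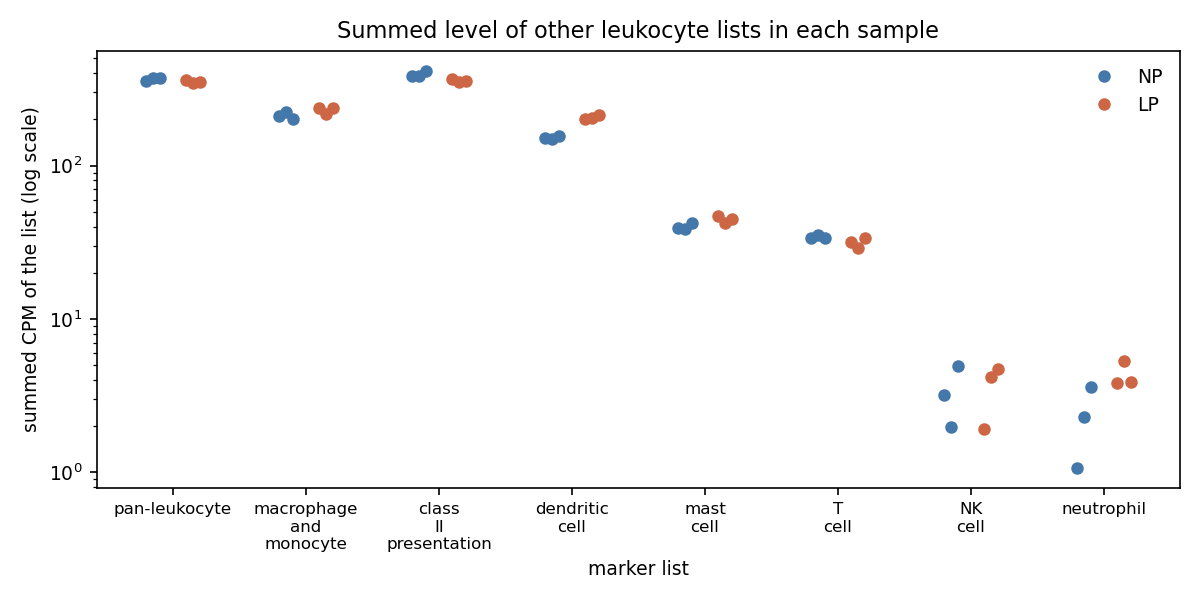
Summed CPM (log axis) of 8 marker lists in each of the 3 NP and 3 LP samples, 1 point per sample. The pan-leukocyte, macrophage, mast cell and NK lists overlap between the groups. The dendritic list is higher in LP at 202 to 213 CPM against 149 to 156 CPM. It is so through Irf7 and Bst2 (20.7 to 59.5 and 82.3 to 99.9 CPM in the group means) but not Flt3 (2.56 to 1.38 CPM). The class II list is lower in LP, at 352 to 369 CPM against 385 to 416 CPM in NP. The T cell list is lower by a small margin, at 29.1 to 33.5 CPM against 33.6 to 35.1 CPM in NP. The NK and neutrophil lists lie at or below 5.34 CPM, with neutrophil sums of 1.07 to 3.61 CPM in NP and 3.83 to 5.34 CPM in LP.

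Antigen presentation on MHC class II is a shared task of B cells, macrophages and dendritic cells. The 9 measured genes of this list summed to 385 to 416 CPM in NP and 352 to 369 CPM in LP, lower in every LP sample. The log2 changes of the 6 tested lay between -0.35 and -0.061, with a median of -0.23. Of these 6, edgeR called 2 lower and 0 higher, and DESeq2 called 0. Cd74, the invariant chain, did not pass the test (log2 change -0.061, adjusted p = 0.535 from edgeR). RT1-Da and RT1-Db1 fell by 0.28 and 0.34 on the log2 scale (adjusted p = 0.00608 and 0.0277 from edgeR). With DESeq2 both calls were lost (adjusted p = 0.0952 and 0.222). That of RT1-Db1 was also lost in edgeR without NP replicate 2 (0.0786), NP replicate 3 (0.0933) or LP replicate 3 (0.0908), and with replicates 2 and 3 summed (0.0680). RT1-DOb, whose protein is found chiefly in B cells, was counted at 11, 7 and 7 reads in NP against 9, 11 and 12 in LP.

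The stroma of lymphoid organs and the thymus, which lie near the thyroid, were looked at as other possible contents of the tissue. Ccl21, the chemokine of lymphatic vessels and lymphoid stroma, was counted at 185, 220 and 203 reads in NP against 262, 301 and 253 in LP, a rise of 0.27 on the log2 scale (edgeR SE 0.077 and adjusted p = 0.0133). The call was lost without NP replicate 3 (0.0601) or LP replicate 2 (0.0855), with library totals alone (0.0581) and with DESeq2 (0.110). Cxcl13, which draws B cells into follicles, was counted at 11, 13 and 11 reads in NP against 21, 18 and 15 in LP and did not pass the test (adjusted p = 0.267 from edgeR). Of the thymus genes, Prss16 had at most 12 reads in a sample, Ccl25 was counted at 3, 3 and 3 reads in NP against 0, 0 and 1 in LP, and Cd1d1, the 1 gene tested, had a log2 change of 0.46 (adjusted p = 0.112 from edgeR, and 0.0234 without NP replicate 1). Of 5 red cell genes tested, as a sign of blood, 1 rose and 2 fell. The globin genes Hbb and Hba1 fell by 0.23 and 0.42 on the log2 scale (adjusted p = 0.0046 and 0.0331 from edgeR), and Slc4a1 rose by 1.34 (adjusted p = 0.0051 from edgeR). The call of Hba1 was lost without NP replicate 1 (0.147), NP replicate 2 (0.0613), LP replicate 2 (0.0829) or LP replicate 3 (0.120), with replicates 2 and 3 summed (0.0734) and with DESeq2 (0.196). Of the thyroid follicular genes 3 of 10 tested rose and 3 fell, and of the parathyroid genes 0 of 4 rose and 1 fell.

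The genes whose values over the 6 samples were most like the average of the 5 tested members were Wdr55, Rbm10, Ufm1, Trappc6b and Tcf7l1, with Pearson correlations of 0.988, 0.987, 0.986, 0.985 and 0.985. Of 10444 genes compared, 400 had a correlation above 0.9. Each member had equal weight in the average, so Ighm and Cd37, with means of 16.3 and 9.5 reads, counted as much as Irf8. Among the LP samples the average was lowest in replicate 2, where Cd37 had 3 reads. It was highest in LP replicate 3, where Ighm had 16. The average joins genes that were lower and genes that were higher in LP, and the 6 samples hold 2 groups, so the correlation is a description of the difference between them.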

How the data were processed

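PolyA-selected RNA from rat thyroid was sequenced from 3 NP and 3 LP samples. The authors mapped reads to rn5 with TopHat 1.4.0 and counted them on Ensembl gene models with HTSeq, and deposited raw counts per gene without normalization. The strand setting of the counting is not given in the sources used here. The members and lists were chosen with earlier results of these data known.

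The main test was that of edgeR 4.0.16 in R 4.3.3 (quasi-likelihood test, TMM, default filter, Benjamini-Hochberg adjustment over 11738 genes) and DESeq2 1.42.0 as an alternative. Standard errors come from dividing the size of the log2 change by the root of its F statistic. Genes below the filter were taken from the fit without it, with no p-value. Depth ranged from 2752144 to 3449857 reads, and intervals cover counting error only.

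Deviations of same-numbered replicates from their group means had correlations of 0.474, 0.210 and 0.175. Differently numbered replicates 2 and 3 gave 0.202 and 0.203, so the values set replicate 1 apart but did not pair replicates 2 and 3 by number. The main fit used no pairs. A block on the replicate number, which the labels do not call a pairing, was an alternative. Other alternatives were leaving out each sample, summing replicates 2 and 3, other filters, and other normalizations. Genes named were all members, Pax5, Cd22 and Cr2, called genes of the B lymphocyte list, and some of those the rule allowed in other lists (at most 3 with most reads and 3 called), with a few added as defining markers. The thyroid follicular and parathyroid lists are given by counts. A further marker that the rule named is not reported here. Nearest genes needed a mean of at least 20 reads. The steps were tested on simulated counts.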

Additional observations from a re-analysis of the deposited data

How the results depend on the processing

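Irf8 and Blnk kept their sign in all 14 alternative settings, between -1.004 and -0.87 and between 0.11 and 0.20 on the log2 scale, and Ighm, Cd37, Pou2af1 and Ptprc in all 13 that gave a value. Cd79a and Cd79b changed sign in some, having at most 3 reads. The replicate block moved the count of B lymphocyte genes that fell from 2 to 4, as did library totals alone (4), and of the genes whose test is given it changed the calls of Cd81, Plcg2, Il2rg and C1qa. Among B lymphocyte genes 2 rose with a mean of at least 50 reads required, against 5. Over all genes, 2154 fell with library totals alone and 703 with DESeq2, against 1378, and the stricter filter left 286 genes higher and 29 lower past both criteria, against 575 and 63. DESeq2 called 1 gene of the plasma cell and other leukocyte lists higher and 1 lower, against 2 and 2. The median log2 fold change of the 8 genes, -0.13, ranged from -0.45 to 0.065 with 1 sample left out, and is set by genes with few reads. The cause of these differences was not tested, except that stricter filters test fewer genes. The depth limits every statement on Cd79a, Cd79b and Pou2af1, which had at most 7 reads in a library.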
